A study of Mus musculus with 20 samples.

Results

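The 10 genes described here make, carry and break down prostaglandins. They were found by their symbols in the deposited expression table, which lists 45777 genes, and all 10 were present. The unit is TPM, a transcript level corrected for length and scaled to the same total in every library. 9 of the 10 were above 0 TPM in all 20 libraries and were tested together with the other genes that met the same condition, 18706 in all. The remaining one, Ptgds, is given by its values alone. By role they are Pla2g4a, which frees arachidonic acid from membrane phospholipids, the cyclooxygenases Ptgs1 and Ptgs2, the prostaglandin E2 synthases Ptges and Ptges3, the prostacyclin synthase Ptgis, the prostaglandin D2 synthases Ptgds and Hpgds, the membrane carrier Slco2a1 and the degrading enzyme Hpgd.

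Prostaglandins are short-lived lipid signals made on demand from arachidonic acid. A phospholipase releases the acid, a cyclooxygenase turns it into prostaglandin H2, and separate terminal synthases turn that common intermediate into prostaglandin E2, prostacyclin or prostaglandin D2. A carrier takes the products back into cells, where 15-hydroxyprostaglandin dehydrogenase inactivates them, and in the mouse uterus locally made prostaglandins are known for their part in embryo attachment and decidualization.

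The study asked how immune cells placed in the uterus change it in a mouse model of blocked implantation. RNA was sequenced from uterine tissue, 1 horn per mouse, of 20 mated wild-type B6D2F1 females aged 8 to 12 weeks, 5 mice to a group, taken at hour 18 of day 3.5 of pregnancy. The control group received no RU486, a blocker of the progesterone and glucocorticoid receptors, and no cells. The implantation failure (IF) group was given RU486 at 3 mg/kg at hour 9 of day 3.5. The PBMC group received the same RU486 dose, after 50000 peripheral blood mononuclear cells (PBMC) of non-pregnant females had been placed in each uterine horn on day 1.5. Its cells had been cultured for 24 h beforehand, and the PBMC-hCG group differed from it in that 5 IU/mL of human chorionic gonadotropin (hCG) was in that culture. No group is labelled as given medium without cells, and none received cells without RU486. The deposited values are TPM, so the sequencing depth of each library is unknown. Between 22702 and 24097 genes were above 0 in a library.

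The labelled tissue was checked against 4 genes that mark the uterus, the steroid receptors Esr1 and Pgr and the homeobox genes Hoxa10 and Hoxa11. Their summed level lay between 476 and 653 TPM in every library. Compared with the control group, the IF group had higher Pgr (log2 difference 1.71 ± 0.14, standard error) and Esr1 (0.51 ± 0.06), and lower Hoxa10 (-0.92 ± 0.13) and Hoxa11 (-1.09 ± 0.12). Genes of smooth muscle were abundant in every library, between 4810 and 11100 TPM summed over 6 genes, so smooth muscle was part of the samples. In such bulk tissue a lower number of cells of one type and less RNA per cell cannot be told apart.

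Single libraries stood apart in some of the genes described here. Control replicate 2 had a mean correlation of 0.9632 with the other controls over all tested genes, while the other 4 controls were between 0.9771 and 0.9829. It held 62.3 TPM of Hpgds and 33.7 TPM of Ptgs1, against at most 14.1 and 19.7 in the other controls, and its Ptges3 was 123 TPM where the others had 170 to 212. PBMC-hCG replicate 1 correlated with its group at 0.9856, near the 0.9879 to 0.9891 of the others, but was well above them in Ptgs2, Ptges, Ptges3 and Slco2a1. PBMC replicate 5 correlated with its group at 0.9820, below the 0.9859 to 0.9885 of the others, and was the highest of the group in the same 4 genes, with Ptgs2 at 10.7 TPM (at most 4.43 in the others), Ptges at 30.2 (20.5), Slco2a1 at 30.1 (23.2) and Ptges3 at 192 (164). IF replicate 3 correlated at 0.9796, where the others of its group had 0.9822 to 0.9866, and held 57.8 TPM of Hpgd against at most 37.2.

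**Figure D1:**
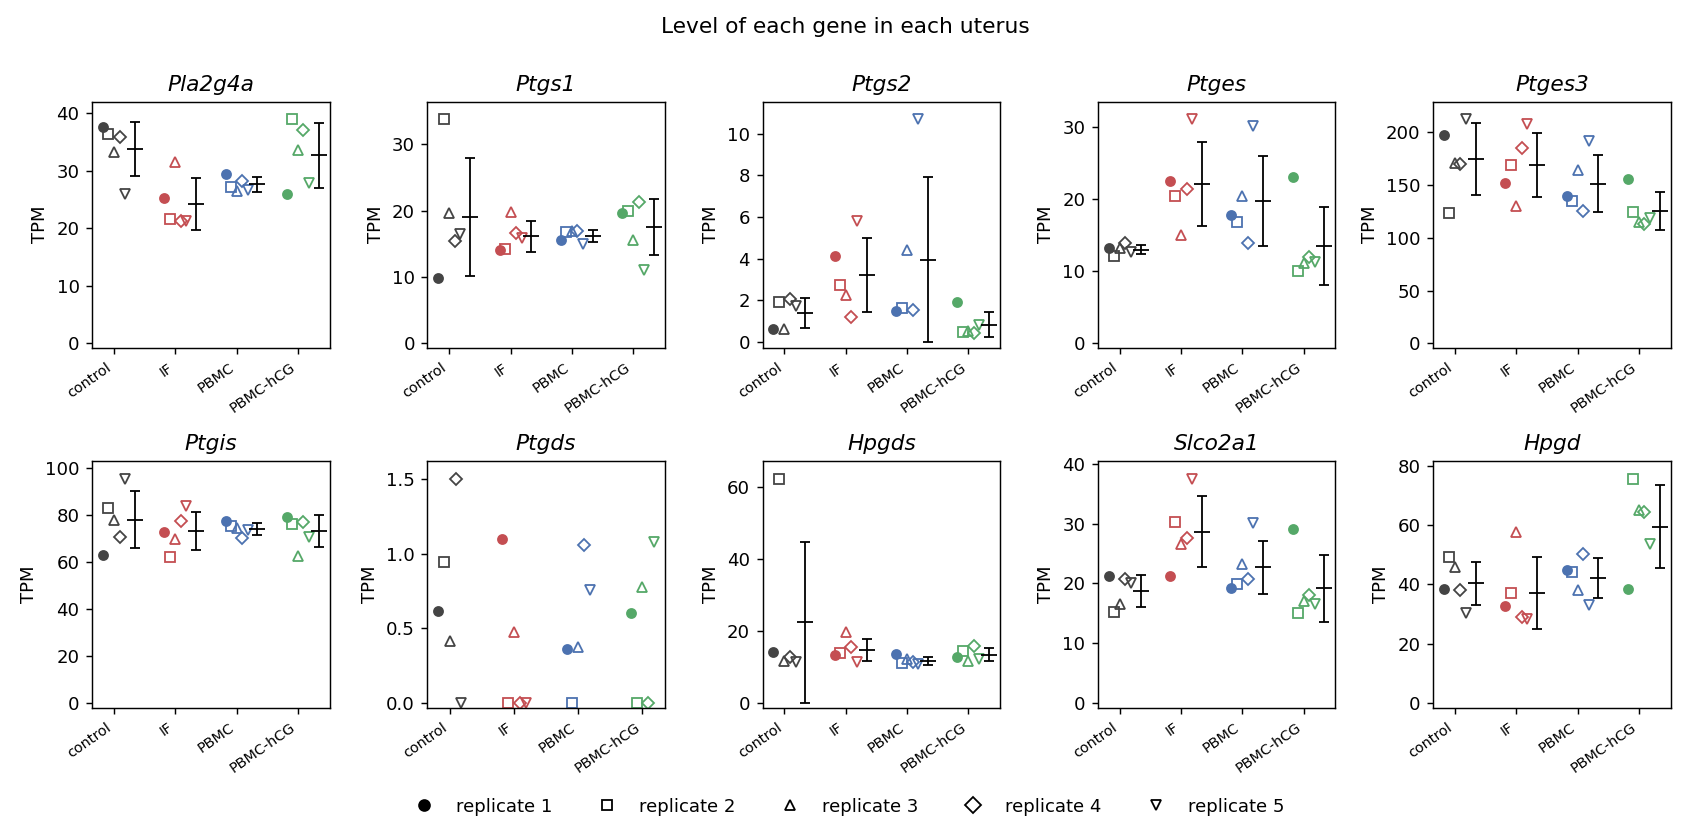
Level in TPM (vertical axis, linear and including 0) of each of the 10 genes in each of the 20 uteri, with 1 marker per mouse, marker shape for the replicate number and bars for the group mean and standard deviation (no bars for Ptgds, which is listed at 0 in 7 libraries). Ptges in the 5 IF mice lies between 15.1 and 31.1 TPM, above all controls, and PBMC-hCG replicate 1 stands above its group in Ptges and Slco2a1.

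Treatment with RU486 went with lower Pla2g4a and with higher Ptges and Slco2a1, by limma at a Benjamini-Hochberg adjusted p under 0.05. These are 3 of the 9 tested members, where 21.9 percent of all 18706 tested genes passed, a share not far from theirs. The median log2 difference was -0.08 over the members and 0.02 over all tested genes. Without IF replicate 5 the count was 1, since Ptges (adjusted p 0.0731) and Slco2a1 (0.0595) no longer passed. Differences are on the scale of log2(TPM + 0.1), which understates the change of genes at low levels.

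Between mice given PBMC and IF mice no gene passed, so the share over all genes was 0 percent and the members' count was 0 of 9. At an unadjusted p under 0.05 limma counted 0 members and 1271 of all genes. The median difference was 0.00 over the members and 0.02 over all tested genes.

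Uteri of the PBMC-hCG group, compared with the IF group, had higher Hpgd and Pla2g4a and lower Ptgs2, Ptges and Slco2a1. These 5 of 9 members compare with 13.6 percent of all tested genes, and whether the list differs from other genes was not tested. The median difference was -0.12 over the members and 0.05 over all genes. This comparison as a whole depended on single mice. All 5 calls were lost without IF replicate 2, 4 or 5, and without PBMC-hCG replicate 2, 3, 4 or 5, when between 0 and 34 of all genes passed in place of 2544 and the members' adjusted p lay between 0.0545 and 0.128. Without IF replicate 1, 3 members and 2334 genes passed, Ptges (adjusted p 0.0531) and Ptgs2 (0.058) being lost. Without IF replicate 3 or PBMC-hCG replicate 1, 6 members passed, with 5061 and 4166 genes. Without the filter on low values 0 members passed (adjusted p 0.0571 to 0.0646), and with only the 2 groups compared in the fit 1 passed, Ptgs2.

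Addition of hCG to the culture was compared directly between the PBMC-hCG and PBMC groups. Here limma called 0 of 9 members and 2 of all genes, 0.0107 percent. At an unadjusted p under 0.05 there were 3 members (Ptgs2, Ptges and Hpgd) and 3024 genes. The medians were -0.02 over the members and 0.02 over all genes. A difference from the IF group that passed for PBMC-hCG and not for PBMC is therefore not shown to differ between these groups.

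Against the control group, the PBMC-hCG group had higher Hpgd and lower Ptges3. These 2 of 9 members stand beside 31.8 percent of all tested genes, a larger share than among the members. The medians were -0.05 and 0.08. Both calls were lost without control replicate 1 or 5, or without PBMC-hCG replicate 3, 4 or 5, and that of Hpgd also without control replicate 4 or PBMC-hCG replicate 2. Adjusted p was then between 0.0502 and 0.0745 for Ptges3 and between 0.0546 and 0.116 for Hpgd. The 5 comparisons share samples, since each group enters more than 1 of them, so their values for one gene are not independent of each other.

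The study's own criteria, a fold change of at least 2 and an unadjusted p under 0.05, were also applied to the limma fit. Between IF and control 0 members met them, beside 4.03 percent of all tested genes, and between PBMC and IF 0, beside 0.438 percent. Ptgs2 alone met them between PBMC-hCG and IF, beside 2.31 percent, and between PBMC-hCG and PBMC, beside 0.893 percent. Between PBMC-hCG and control 0 met them, beside 4.74 percent. On the unadjusted p alone, 3, 0, 6, 3 and 2 members passed in these comparisons, in the same order.

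**Figure D2:**
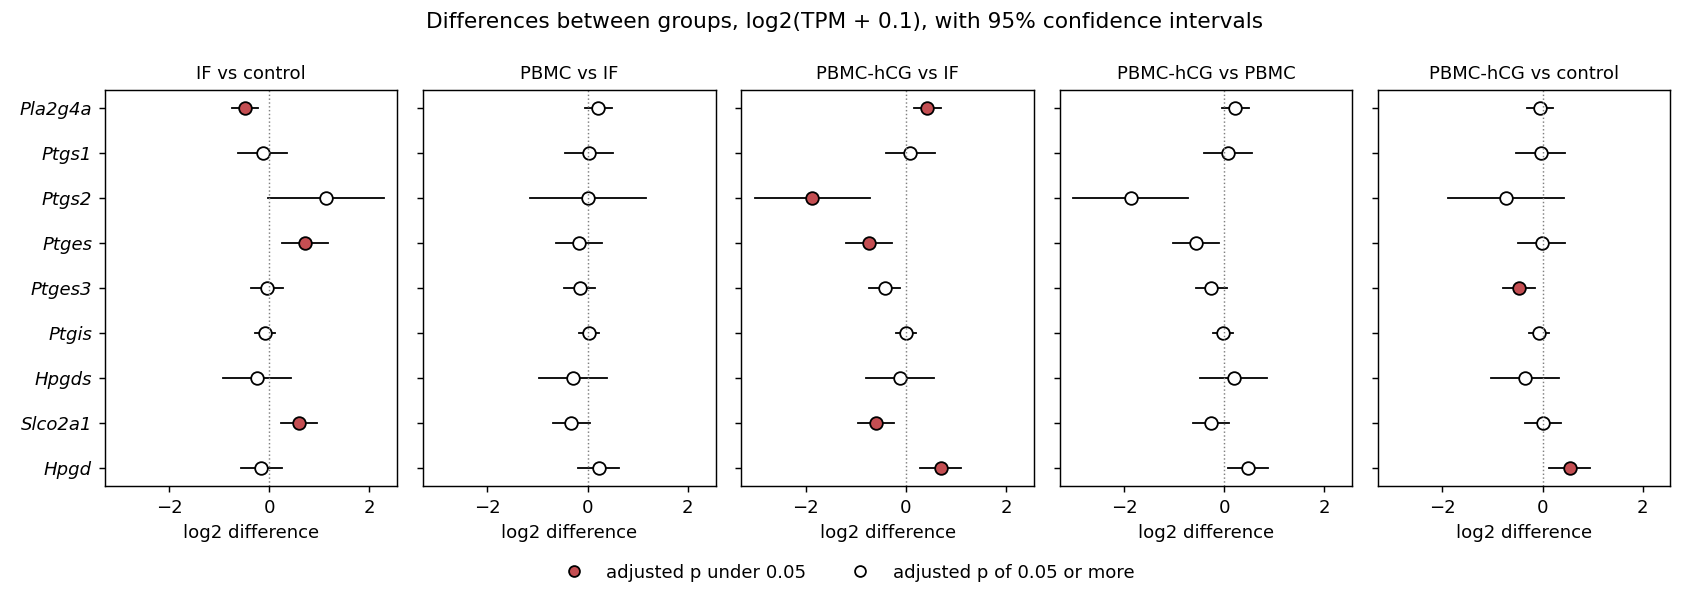
Log2 difference (horizontal axis, log2 of TPM + 0.1) of the 9 tested genes in each of the 5 comparisons, with 95 percent intervals and 5 mice per group. The interval of Ptgs2 between PBMC-hCG and IF runs from -3.02 to -0.71, and that of Ptgis in the same comparison from -0.20 to 0.20.

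Pla2g4a encodes the cytosolic phospholipase A2 that opens the pathway by cutting arachidonic acid from phospholipids. In the 5 control mice it stood at 37.6, 36.3, 33.3, 35.8 and 25.9 TPM. The 5 IF mice had 25.3, 21.6, 31.6, 21.2 and 21.2 TPM. 4 of the 5 controls lay above every IF mouse, and only control replicate 5 fell among them. Pla2g4a fell by 0.49 on the log2 scale (standard error 0.13, 95 percent interval -0.75 to -0.22, adjusted p 0.00982), and it passed in each of the 19 alternative fits that were run, with adjusted p from 0.00187 to 0.0403.

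Mice given PBMC had 29.5, 27.2, 26.5, 28.2 and 26.7 TPM of Pla2g4a, a narrow band inside the range of the IF group. Their difference from the IF group was 0.21 (interval -0.06 to 0.48, adjusted p 0.776). In the PBMC-hCG group the values were 25.9, 38.9, 33.6, 37 and 27.9 TPM. Replicates 2, 3 and 4 of that group exceeded every IF mouse, while replicates 1 and 5 lay between IF replicates 1 and 3. The phospholipase was higher than in the IF group by 0.43 ± 0.13 (adjusted p 0.0379, from 0.0101 to 0.119 over the alternatives). From the control group it differed by -0.05, with an interval of -0.32 to 0.21.

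The cyclooxygenase Ptgs1, the form present without stimulation in many tissues, held a mean of 17.2 TPM over the 20 mice. Control mice had 9.85, 33.7, 19.7, 15.4 and 16.5 TPM, which includes both the lowest and the highest value of all. IF mice had 14.1, 14.2, 19.8, 16.6 and 15.9 TPM. The PBMC group lay between 14.9 and 16.9 TPM and the PBMC-hCG group between 11.1 and 21.3. The groups overlapped throughout, and no comparison passed. The difference between IF and control was -0.13 (interval -0.62 to 0.35), and without control replicate 2 it was 0.10. That between PBMC-hCG and control likewise went from -0.04 to 0.20.

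Ptgs2, the inducible cyclooxygenase, was the lowest of the 9 tested members, with a mean of 2.35 TPM, and the most variable, its highest value being 24.8 times its lowest. Control mice had 0.625, 1.93, 0.613, 2.05 and 1.74 TPM. IF mice had 4.12, 2.72, 2.24, 1.21 and 5.81 TPM. 4 of the 5 IF mice were above every control, but replicate 4 was below 3 of them, and the difference of 1.14 ± 0.55 did not pass (interval -0.02 to 2.29, adjusted p 0.153). In the PBMC group the values were 1.47, 1.61, 4.43, 1.54 and 10.7 TPM, so that replicate 5 had the highest level of all mice while 3 mice of that group were within the range of the controls.

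The PBMC-hCG mice had 1.9, 0.478, 0.491, 0.432 and 0.814 TPM of Ptgs2. 4 of these 5 lay below every IF mouse and every PBMC mouse, and 3 of them below every control. Replicate 1 was above IF replicate 4. Compared with the IF group Ptgs2 fell by 1.87 on the log2 scale (standard error 0.55, adjusted p 0.0385, from 0.0151 to 0.126 over the alternatives). In this comparison it was the one member with at least a 2-fold difference at an unadjusted p under 0.05. With a pseudocount of 1 in place of 0.1 the difference was -1.16 and the adjusted p 0.0533, and without PBMC-hCG replicate 1 they were -2.20 and 0.0151. Against the PBMC group the difference was -1.87 as well (interval -3.02 to -0.72), with an adjusted p of 0.264.

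Taken as a share of the summed TPM of both cyclooxygenases, Ptgs2 made up 22.6, 16.1, 10.1, 6.8 and 26.8 percent in the IF mice. The controls had 5.97, 5.41, 3.02, 11.8 and 9.56 percent. In the PBMC-hCG group the share was 8.81, 2.33, 3.05, 1.99 and 6.82 percent. Ptgs1 thus supplied most of the cyclooxygenase transcripts in every mouse, and the IF group overlapped with both other groups in this share. The PBMC group spanned 8.37 to 41.8 percent, the top value belonging to replicate 5. These shares carry no test.

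Ptges, the membrane-bound synthase that makes prostaglandin E2 and is induced together with Ptgs2 in many cells, stood at 13.3, 12.1, 13.2, 13.9 and 12.7 TPM in the controls. The IF mice had 22.6, 20.5, 15.1, 21.4 and 31.1 TPM. Every IF mouse was above every control, with IF replicate 3 nearest to them. The increase was 0.72 ± 0.22 (interval 0.26 to 1.18, adjusted p 0.0237, from 0.0111 to 0.0731 over the alternatives). It no longer passed without IF replicate 5, the highest of the group, when it was 0.59.

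In the PBMC group Ptges was at 17.8, 16.8, 20.5, 13.9 and 30.2 TPM. These values overlapped with those of the IF group, from which they differed by -0.17 (interval -0.63 to 0.29). This small difference was -0.33 without PBMC replicate 5, -0.30 without IF replicate 3, -0.054 without PBMC replicate 4 and -0.037 without IF replicate 5. PBMC-hCG mice had 23.1, 10.1, 11.1, 12 and 11.3 TPM. 4 of them were below every other mouse of all groups, and replicate 1 was above 4 of the 5 IF mice. The synthase fell by 0.74 on the log2 scale against the IF group (standard error 0.22, adjusted p 0.039, from 0.00733 to 0.128 over the alternatives), and without PBMC-hCG replicate 1 the difference was -0.95 with an adjusted p of 0.00733. Against the PBMC group it was -0.57, with an adjusted p of 0.283.

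Ptges3, a cytosolic prostaglandin E2 synthase that also serves as the Hsp90 co-chaperone p23, was the most abundant member with a mean of 155 TPM. Controls had 197, 123, 171, 170 and 212 TPM. PBMC-hCG mice had 156, 124, 115, 113 and 119 TPM. 3 of these were below every control, whereas replicate 2 was level with control replicate 2 and replicate 1 was above it. Ptges3 fell by 0.46 on the log2 scale against the control group (standard error 0.15, adjusted p 0.0249, from 0.00295 to 0.0745 over the alternatives). Without control replicate 2 the difference was -0.58 (adjusted p 0.00295), and without PBMC-hCG replicate 1 it was -0.54.

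The IF mice had 152, 169, 130, 185 and 208 TPM of Ptges3 and the PBMC mice 140, 135, 164, 125 and 192 TPM. Both groups overlapped with the controls. The PBMC-hCG group differed from the IF group by -0.42 ± 0.15, which narrowly missed (adjusted p 0.0634, from 0.0223 to 0.192 over the alternatives). It passed without IF replicate 3 (0.0223), without PBMC-hCG replicate 1 (0.0301) or with the replicate number as a block (0.0463). The table also lists a pseudogene of this gene, Ptges3-ps, at a mean of 6.49 TPM, and reads of the gene and its near copy may not have been fully separated.

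Ptgis, which makes prostacyclin, was the steadiest member. Its highest value was 1.53 times its lowest. Controls had 63.2, 82.9, 77.8, 70.9 and 95.3 TPM, IF mice 62.1 to 84, PBMC mice 70.4 to 77.3 and PBMC-hCG mice 62.6 to 79.3. No comparison passed, and the interval between IF and control was -0.28 to 0.12. The 4 group means were between 73.2 and 78 TPM and do not differ beyond their spread. The ratio of Ptgis to Ptges was 4.74, 6.84, 5.89, 5.09 and 7.54 in the controls and 3.24, 3.03, 4.64, 3.62 and 2.7 in the IF mice. Every IF mouse had a lower ratio than every control, a difference given without a test.

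Prostaglandin D2 has a pair of synthases, of which Hpgds passed in no comparison. Ptgds, the lipocalin-type synthase, was at or under 1.5 TPM everywhere. Controls had 0.618, 0.947, 0.416 and 1.5 TPM with replicate 5 listed at 0, and the gene was listed at 0 in 3 IF, 1 PBMC and 2 PBMC-hCG libraries. It was above 0 in 13 of 20 libraries and was not tested.

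Hpgds, the hematopoietic-type synthase found in mast cells and other immune cells, had a mean of 15.7 TPM. Controls had 14.1, 62.3, 11.7, 12.7 and 11.4 TPM. Mice of the other groups lay between 10.9 and 19.7 TPM. Only control replicate 2 was outside that range, at 4.99 times the mean of the other controls. The difference between IF and control was -0.24 (interval -0.92 to 0.44) with that library and 0.22 (adjusted p 0.219) without it, and that between PBMC-hCG and control went from -0.35 to 0.11. In the same library 10 mast cell markers summed to 167 TPM, against 93.6 to 119 in the other controls, with Mcpt1 at 0 in every library. 8 of the other 9 markers were above all other controls in it, Cma1 being the most abundant at 36.2 TPM (13.5 to 22.5 in the others). Kit, the most abundant of the list over all mice, went the other way, at 14.7 TPM against 20.8 to 28.3. The 7 stromal markers of this library summed to 4810 TPM against 6580 to 7050, and its 7 epithelial markers to 1330 against 742 to 1020. Outside the controls, IF replicate 1 held 152 TPM of the mast cell markers and 13.4 TPM of Hpgds. Over the 20 mice Hpgds had an r of 0.39 with the mast cell sum, -0.62 with the stromal and 0.34 with the epithelial sum. Without control replicate 2 these were -0.16, 0.13 and 0.27. What part these cell types had in the Hpgds level of control replicate 2 was not tested. The 3 genes whose log2 levels followed Hpgds most closely over the 20 mice were Wfdc2 (r 0.93), Ajuba (0.92) and Aspg (0.88), and without control replicate 2 these r were 0.58, 0.72 and 0.50.

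Slco2a1, the prostaglandin transporter, brings extracellular prostaglandins into the cell. In controls it stood at 21.2, 15.2, 16.5, 20.8 and 20 TPM. In IF mice it stood at 21.2, 30.3, 26.6, 27.5 and 37.4 TPM. 4 IF mice were above every control, and IF replicate 1 was level with the highest of them. The carrier rose by 0.59 ± 0.17 (interval 0.23 to 0.96, adjusted p 0.0191, from 0.00905 to 0.0595 over the alternatives), a call that ended without IF replicate 5, when the difference was 0.49.

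PBMC mice had 19.3, 19.9, 23.2, 20.8 and 30.1 TPM of Slco2a1, and PBMC-hCG mice 29, 15, 17.1, 18.1 and 16.6 TPM. The PBMC group overlapped with the IF group (difference -0.33, interval -0.69 to 0.04). 4 PBMC-hCG mice were below every IF mouse, and replicate 1 was above 3 of the 5 IF mice. Slco2a1 fell by 0.59 on the log2 scale against the IF group (standard error 0.17, adjusted p 0.038, from 0.00781 to 0.126 over the alternatives). Without PBMC-hCG replicate 1 the difference was -0.75. From the control group the PBMC-hCG group differed by 0.00, with an interval of -0.36 to 0.37.

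Hpgd, the dehydrogenase that begins the inactivation of prostaglandins inside the cell, had a mean of 44.8 TPM over the 20 mice. Controls had 38.6, 49.2, 45.8, 38.1 and 30.5 TPM. IF mice had 32.8, 37.2, 57.8, 29.2 and 28.4 TPM and PBMC mice 44.9, 44.3, 38.1, 50.3 and 33.1 TPM. These 3 groups overlapped, IF replicate 3 being the highest of them. PBMC-hCG mice had 38.5, 75.5, 65.2, 64.5 and 53.6 TPM. 4 of them were above every control and every PBMC mouse, and 3 were above every IF mouse.

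Compared with the IF group Hpgd rose by 0.70 ± 0.20 in the PBMC-hCG group (interval 0.29 to 1.10, adjusted p 0.0344, from 0.00893 to 0.114 over the alternatives). Compared with the control group it rose by 0.54 ± 0.20 (adjusted p 0.0418, from 0.00932 to 0.116 over the alternatives). That second call also ended under quantile normalization (0.0587), under median ratio scaling (0.0698) and without the filter on low values (0.0694). Against the PBMC group the difference was 0.47 (interval 0.07 to 0.88, adjusted p 0.286). Without PBMC-hCG replicate 1, the lowest of its group, the difference from the IF group was 0.84 and that from the control group 0.69.

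The summed TPM of both cyclooxygenases divided by that of Hpgd sets the cyclooxygenase step beside the first step of breakdown. It was 0.559, 0.272, 0.247, 0.338 and 0.222 in the PBMC-hCG mice. IF mice had 0.556, 0.453, 0.382, 0.609 and 0.765. 4 of the 5 PBMC-hCG mice lay below every IF mouse. Controls had 0.271, 0.724, 0.444, 0.458 and 0.598 and overlapped with both, and the ratios carry no test and do not measure enzyme activity.

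Ordered by group mean, Ptges3 was highest in control, then IF, PBMC and PBMC-hCG, and Hpgd was highest in PBMC-hCG, then PBMC, control and IF. Both orders were the same without control replicate 2 and without PBMC-hCG replicate 1. For Pla2g4a the order was control, PBMC-hCG, PBMC and IF, with PBMC-hCG (34.4 TPM) ahead of control (33.8) when PBMC-hCG replicate 1 was left out. Ptges and Slco2a1 ran from IF through PBMC and PBMC-hCG to control. Without PBMC-hCG replicate 1 the PBMC-hCG means of both were below control, at 11.1 against 13 TPM for Ptges and 16.7 against 18.7 TPM for Slco2a1, and for Slco2a1 this was so without control replicate 2 as well. Ptgs1 had its highest mean in control with control replicate 2 (19 TPM) and its lowest there without it (15.4).

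The PBMC group mean lay between those of the IF and PBMC-hCG groups for Pla2g4a (27.6 between 24.2 and 32.7 TPM), Ptges (19.8 between 22.1 and 13.5), Slco2a1 (22.7 between 28.6 and 19.2) and Hpgd (42.1 between 37.1 and 59.5). For Ptgs2 it was above both, at 3.96 TPM beside 3.22 and 0.822, and between them at 2.26 TPM without PBMC replicate 5. The log2 difference of Ptgs2 between PBMC and IF went from 0.00 to -0.47 without that library. Over all 5 mice per group, neighbouring groups in the orders of these 5 genes overlapped in single mice.

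Across the 20 mice several members followed each other, which is given as a description over libraries that share their groups. Log2 levels of Ptges and Slco2a1 had a Pearson r of 0.87 (Spearman rho 0.86), and 0.79 after each group's mean was subtracted. Ptgs2 and Ptges had an r of 0.83 (rho 0.76, 0.72 after subtraction). For Pla2g4a and Hpgd the r was 0.72 (rho 0.78, 0.82 after subtraction). Hpgd ran opposite to Ptges3 (r -0.87, rho -0.84, -0.83 after subtraction) and to Ptges (r -0.75, rho -0.77, -0.82 after subtraction). The r of Ptgs1 and Hpgds was 0.68 with control replicate 2 and 0.23 without it. Without PBMC-hCG replicate 1 the r of Ptges and Slco2a1 was 0.86, and 0.65 after subtraction, and that of Ptgs2 and Ptges was 0.84, and 0.67 after subtraction.

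**Figure D3:**
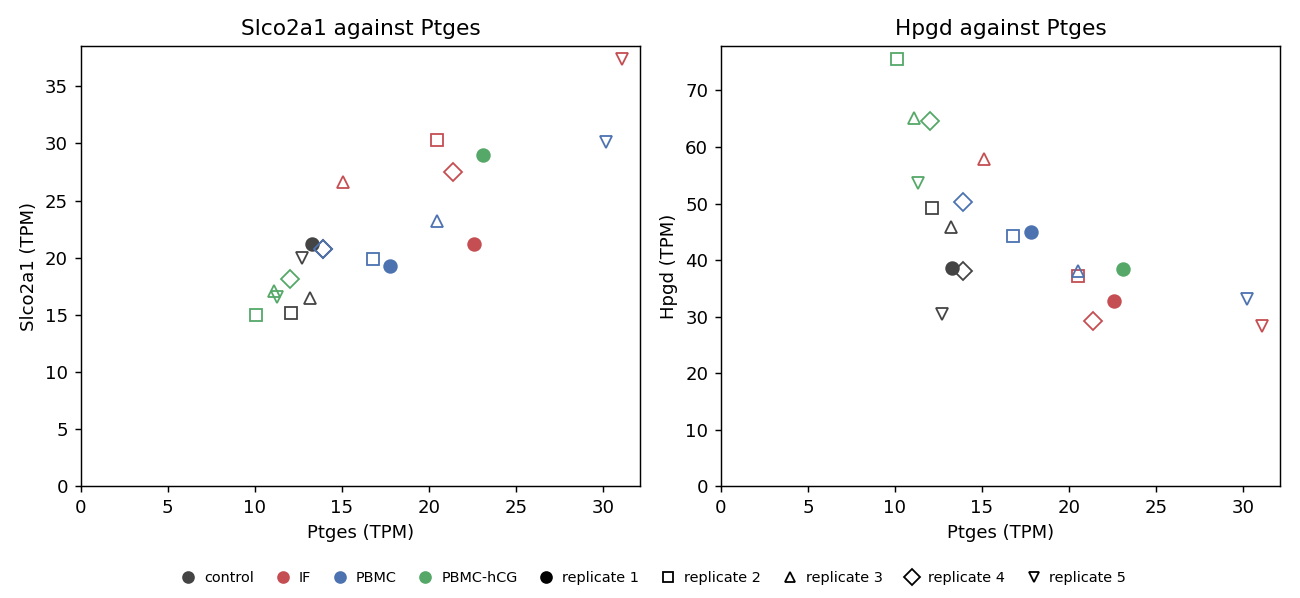
Slco2a1 (left) and Hpgd (right) on the vertical axes against Ptges on the horizontal axes, all in TPM on linear axes from 0, with 1 marker per mouse for 20 mice in 4 groups. Slco2a1 is highest at 37.4 TPM in the mouse with the most Ptges, 31.1 TPM, and Hpgd is highest at 75.5 TPM in the mouse with the least, 10.1 TPM.

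The genes that followed each member most closely over the 20 mice, out of 15770 genes with a mean of at least 1 TPM, are given by r of log2 levels. For Ptgs2 they were Hbegf (0.91), a growth factor gene active in uterine epithelium around attachment, Trib1 (0.90) and Gfpt2 (0.88). Those of Ptges were Tle3 (0.96), Slco5a1 (0.95) and Mast2 (0.94). Slco2a1 was followed by Mesd (0.97), Qk (0.93) and Ube2g2 (0.92).

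For Pla2g4a the closest were Retreg1 (0.90), Mob3b (0.90) and Pawr (0.89), and for Hpgd Ganc (0.94), Enpp5 (0.93) and Cd1d1 (0.93). Ptges3 had the highest values of all, with Canx (0.99), a chaperone of the endoplasmic reticulum, Naa15 (0.98) and Cct6a (0.98), a subunit of a cytosolic chaperonin. Ptgis was followed by Tagln (0.78) and Smtn (0.76), both genes of smooth muscle, and by Igsf9b (0.77). Ptgs1 was followed by Adgrg1 (0.80), Ctsh (0.79) and Mfge8 (0.78), for which r was 0.62, 0.73 and 0.65 without control replicate 2.

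Cell type markers were correlated with some members. Summed over 6 myometrial genes, of which Tagln was the most abundant and none was at 0 throughout, the level was 6630, 5900, 8780, 8100 and 11100 TPM in controls and 6040, 5440, 4810, 5440 and 5460 TPM in PBMC-hCG mice. IF mice had 6410, 6150, 5950, 7270 and 7430 TPM and PBMC mice 7130, 6970, 6670, 5800 and 6230 TPM. The PBMC-hCG group was the lowest, and 5 of the 6 genes passed as lower than in control. Between IF and control 1 of the 6 passed as lower, Acta2 (-0.42, adjusted p 0.0367), and between PBMC-hCG and IF 0 passed. Over the 20 mice this sum had an r of 0.73 with Ptges3 and of -0.64 with Hpgd.

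Summed over 7 epithelial genes, led by Krt18 and with none at 0 throughout, the level was 920, 1330, 1020, 1000 and 742 TPM in controls and 1110, 1460, 1350, 1340 and 1160 TPM in PBMC-hCG mice. IF mice had 1070, 1010, 1300, 1020 and 979 TPM, and PBMC mice 1060, 1140, 1060, 1150 and 1320 TPM. IF replicate 3, the highest of its group in Hpgd, was also the highest in this sum. PBMC replicate 5, the highest of its group in this sum at 1320 TPM, was the lowest in Hpgd at 33.1 TPM. The r of the epithelial sum was 0.74 with Hpgd and -0.76 with Ptges3. The 7 genes did not move together between IF and PBMC-hCG, where 4 of the 7 had a positive difference. Krt8, Krt18, Krt19 and Cldn3 had higher means in PBMC-hCG than in IF. Means were lower for Epcam (125 against 144 TPM), Krt7 (93.5 against 125) and Cdh1 (65.7 against 67.6). Between IF and control 5 of the 7 genes passed as higher and 1 as lower, between PBMC-hCG and IF 1 passed as higher, and between PBMC-hCG and control 4 passed as higher and 1 as lower.

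Summed over 5 platelet genes, led by Pf4, the level was 28.8, 21.4, 29.6, 27.3 and 29.6 TPM in controls and 28.1, 29.1, 17.2, 29.3 and 33.7 TPM in IF mice. PBMC mice had 24.8, 23.8, 24.2, 25.7 and 26.8 TPM, and PBMC-hCG mice 26.6, 20.8, 19, 16.9 and 22.9 TPM. This sum had an r of 0.84 with Ptges3 and -0.85 with Hpgd, and 1 of its 3 tested genes passed, Pf4, as lower in PBMC-hCG (mean 16.8 TPM) than in control (23.3). Most of the sum is Pf4, and the other tested genes did not follow it, with means of 3.68 against 3.42 TPM for Itga2b and 0.468 against 0.451 TPM for Gp1bb. Summed over 9 markers of T, B and NK cells, led by Ncr1, the levels were 33.4, 34.8, 36.6, 34.4 and 28.6 TPM in controls and 38.7, 37.2, 51.7, 27.4 and 37.4 TPM in IF mice. PBMC mice had 40.2, 37, 34.9, 41.5 and 27.3 TPM, and PBMC-hCG mice 47.8, 38.9, 47.9, 51.4 and 43.3 TPM. The r of this sum was -0.73 with Ptges3 and 0.68 with Hpgd, and 2 of its 7 tested genes passed as higher in PBMC-hCG than in control. In that comparison 6 of the 7 had a positive difference. Most of the sum is Ncr1, with a mean of 26.3 TPM in PBMC-hCG against 18.4 in control, followed by Klrb1c (8.94 against 5.69). Means of Cd3e (1.94 against 2.01 TPM) and Cd79a (1.38 against 2.52) were lower in PBMC-hCG. Endothelial and stromal genes, whose levels follow below, also passed as higher in PBMC-hCG than in control, in 6 of 6 and 4 of 7 cases. Between PBMC-hCG and IF, 1 of 6 endothelial genes (Emcn, 0.29, adjusted p 0.0287), 1 of 7 stromal and 1 of 4 uterine genes passed as higher. Their part in the members that passed there was not tested. The endothelial sum had an r of -0.42 with Ptges3 and 0.34 with Hpgd, and of -0.75 and 0.52 without control replicate 2. For the stromal sum these were -0.24 and 0.16, and -0.60 and 0.35 without that library. The part of any of these cell types in the levels of Hpgd and Ptges3 was not tested.

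The other marker lists are given by their group means in the order control, IF, PBMC and PBMC-hCG. Stromal genes, led by Dcn, summed to 6420, 8810, 9350 and 9250 TPM, and endothelial genes, led by Pecam1, to 436, 569, 588 and 638 TPM. Both lists were higher, like Ptges and Slco2a1, in IF than in control, with 4 of 7 and 6 of 6 genes passing as higher in IF. The stromal sum was 6920, 4810, 7050, 6580 and 6750 TPM in controls and 8780, 9200, 8560, 9430 and 8060 TPM in IF mice. The endothelial sum was 484, 355, 469, 485 and 388 TPM in controls and 575, 583, 587, 559 and 542 TPM in IF mice. Neither sum overlapped between these groups, no gene of either list was at 0 throughout, and their part in the higher Ptges and Slco2a1 was not tested. Over the 20 mice the stromal sum had an r of 0.25 with Ptges and 0.24 with Slco2a1, and the endothelial sum 0.15 and 0.19. Without control replicate 2 these were 0.15, 0.01, 0.03 and -0.01. Uterine genes summed to 626, 545, 523 and 581 TPM, in the same order of groups. Their sum was 588 to 653 TPM in controls, 482 to 589 in IF mice and 542 to 606 in PBMC-hCG mice. Of all 13 marker lists, that of uterine genes had the r of largest size with Ptges (-0.64) and with Slco2a1 (-0.53), then platelets (0.55 and 0.47). Without control replicate 2 these were -0.62 and -0.47, and 0.53 and 0.44. The same lists had the r of largest size with Pla2g4a, platelets at -0.59 and uterine genes at 0.55, followed by epithelium at 0.44, and with Ptgs2, uterine genes at -0.60 and platelets at 0.42. The part of these lists in the levels of the 4 genes was not tested. Macrophage genes, led by C1qa, summed to 616, 640, 671 and 682 TPM, and mast cell genes to 120, 102, 116 and 117 TPM. Neutrophil genes, led by Retnlg, gave 126, 157, 188 and 176 TPM, and eosinophil genes, led by Ear2, 22.8, 26.9, 30.2 and 25.6 TPM. Most of the neutrophil sum is Retnlg alone, at 121, 146, 168 and 166 TPM. S100a8 had 2.34, 3.87, 6.73 and 3.03 TPM and S100a9 1.85, 5.75, 11.4 and 5.53 TPM. Red cell genes, led by Hbb-bs, gave 929, 1080, 997 and 521 TPM, with 2 of 5 passing as lower in PBMC-hCG than in IF. The red cell sum was 1100, 762, 640, 1800 and 1080 TPM in IF mice and 405, 342, 601, 878 and 378 TPM in PBMC-hCG mice, and its part in the lower Ptgs2, Ptges and Slco2a1 was not tested. Oviduct and ovary genes, led by Ovgp1, gave 38.3, 27.4, 23.6 and 24.9 TPM.

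Some genes of these smaller lists passed as well, and they are named here after their values were seen. 2 of 7 macrophage genes (Adgre1 and Csf1r) and 1 of 4 tested neutrophil genes (S100a9) were higher in IF and in PBMC-hCG than in control. Of 5 tested oviduct and ovary genes, Ovgp1 was lower in IF than in control, Hsd17b7 lower in PBMC-hCG than in IF, and both lower in PBMC-hCG than in control. The red cell gene Hba-a2 was lower in PBMC-hCG than in control. These calls come from the fit of all 20 libraries and were not followed through the alternatives.

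Around the 10 members stand other genes of the same pathway, taken from 4 lists of named genes. Their counts stand beside 21.9 percent of all tested genes in IF against control, 13.6 percent in PBMC-hCG against IF and 31.8 percent in PBMC-hCG against control, and nothing is read from them about a list as a whole. Of 13 tested phospholipases A2 and genes of arachidonate handling, 2 were higher and 0 lower in IF than in control, with a median of -0.02. Acsl4, which activates arachidonic acid for return to lipids, was higher by 0.58 (adjusted p 0.000704) and Mboat7, which places it in phosphatidylinositol, by 0.40 (0.000146). Both act in the return of the acid to lipids, the reverse of the step catalysed by Pla2g4a. Of 9 tested synthases and reductases 0 were higher and 2 lower, with a median of -0.15. They were Akr1b3, an aldose reductase able to make prostaglandin F2α, at -0.49 (0.0136, and 0.0723 when only the 2 groups compared were fitted, with 0.000583 to 0.0723 over the alternatives), and Prxl2b, a prostamide and prostaglandin F synthase, at -0.44 (0.00733).

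Of 7 tested carriers and breakdown enzymes outside the 10, 2 were higher and 0 lower in IF than in control, with a median of -0.04. These were the organic anion carriers Slco4a1 (1.44, adjusted p 0.00137) and Slco2b1 (0.72, 0.00161), relatives of Slco2a1. All 9 prostanoid receptors were tested, and 1 was higher and 1 lower, with a median of -0.02. The prostaglandin E2 receptor Ptger3 stood at 44.6, 45.4, 59.3, 48.1 and 42 TPM in controls and at 12.7, 10.7, 6.88, 11.4 and 9.62 TPM in IF mice. The groups were far apart, and PBMC and PBMC-hCG mice stayed between 11.3 and 15.9 TPM. Its difference was -2.23 ± 0.13 (adjusted p 2.84e-09). Ptgdr2, a receptor for prostaglandin D2, had 1.63, 2.41, 1.66, 1.87 and 1.54 TPM in controls and 4.18, 4.59, 6.26, 5.57 and 3.35 TPM in IF mice, again without overlap (1.33 ± 0.20, adjusted p 0.000106).

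Between PBMC-hCG and IF the same lists gave 1 higher and 0 lower phospholipase gene (median 0.01), 1 higher and 1 lower synthase or reductase (median 0.14), 2 higher carriers or breakdown enzymes (median 0.04) and 1 higher receptor (median 0.17). Ptgfr, the receptor for prostaglandin F2α, had 4.51, 4.16, 5.02, 3.42 and 3.23 TPM in IF mice and 4.79, 10.7, 13.8, 9.77 and 10 TPM in PBMC-hCG mice. 4 PBMC-hCG mice exceeded every IF mouse, and replicate 1 lay among them. Ptgfr was higher by 1.19 ± 0.31 (adjusted p 0.0307). The others were Prxl2b (0.40, 0.0334), the prostaglandin E2 synthase Ptges2 (-0.38, 0.0423), the lysosomal phospholipase Pla2g15 (0.33, 0.0338), the carrier Slco2b1 (0.45, 0.0471) and Ptgr2, a reductase that acts on the product of Hpgd (0.29, 0.0437).

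Like the members, all 6 of these genes lost their calls without IF replicate 2, 4 or 5 or PBMC-hCG replicate 2, 3, 4 or 5, with an adjusted p of at most 0.145, and Slco2b1 also without IF replicate 1 (0.0716). They also missed without the filter on low values (0.0503 to 0.0762). With only the 2 groups compared in the fit, Ptges2 (0.0687), Ptgr2 (0.0584) and Slco2b1 (0.0537) missed. Without a variance trend Ptgr2 (0.052) and Slco2b1 (0.0555) missed, and under median ratio scaling Slco2b1 did (0.0503). In the PBMC-hCG group against the control group the 4 lists had 3 higher and 0 lower, 0 higher and 2 lower, 2 higher and 0 lower, and 1 higher and 1 lower, in the order given above. In the comparisons of PBMC with IF and of PBMC-hCG with PBMC, limma called 0 genes of each list. At an unadjusted p under 0.05 they held 2, 1, 1 and 1 genes in the first of these comparisons and 2, 1, 1 and 4 in the other.

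By position on the reference assembly GRCm38.p6, Pla2g4a (chr1:149829618-149961290) and Ptgs2 (chr1:150100031-150108234) are near neighbours, 138740 bases apart with 2 annotated genes between them, the pseudogene Gm19136 and the long noncoding RNA Ptgs2os. They moved in opposite directions in the comparison of PBMC-hCG with IF, and over the 20 mice their r was -0.60. After each group's mean was subtracted it was -0.37, and -0.25 when PBMC-hCG replicate 1 was also left out. Ptgs2os had a mean of 0.0111 TPM. Ptges (chr2:30889471-30931020), Ptgs1 (chr2:36216742-36258593), Ptgis (chr2:167203194-167252150) and Ptgds (chr2:25466709-25470110) share chromosome 2 without being neighbours. Hpgds lies at chr6:65117293-65144981, Hpgd at chr8:56294552-56321046, Slco2a1 at chr9:103007061-103096002 and Ptges3 at chr10:128058982-128077254. Noncoding genes or pseudogenes are annotated within Ptges, Ptgis and Slco2a1, and none of these is in the expression table.

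Promoter sequences are shown for 4 of the 5 members that passed between PBMC-hCG and IF, the lower Ptgs2, Ptges and Slco2a1 and the higher Hpgd, to set side by side the sequence around the starts of genes that moved together or apart. RefSeq windows of 250 bases before to 50 after an annotated transcript start were at hand on GRCm38.p6 for 9 of the 10 members, all but Ptgis, with a pair of windows for Pla2g4a. The windows of Ptges, Slco2a1, Ptgs1, Ptgds and Hpgds and the second of Pla2g4a lie wholly inside the gene spans given above, at a transcript start other than the outermost. Capitals mark matches on either strand to the GC box GGGCGG (in 35.7 percent of 32851 promoters), the TATA box TATAAA (13.6 percent), the E box CACGTG (7.15 percent), the short cyclic AMP response site TGACG (20.8 percent) and the hexamer of the progesterone and glucocorticoid receptors AGAACA (19 percent).
Ptgs2: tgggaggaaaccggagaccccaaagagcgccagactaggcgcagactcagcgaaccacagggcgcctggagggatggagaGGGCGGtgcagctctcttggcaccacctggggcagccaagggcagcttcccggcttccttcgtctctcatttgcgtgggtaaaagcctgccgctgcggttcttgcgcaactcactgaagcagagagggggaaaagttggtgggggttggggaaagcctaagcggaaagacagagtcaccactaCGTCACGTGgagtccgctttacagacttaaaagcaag
Ptges: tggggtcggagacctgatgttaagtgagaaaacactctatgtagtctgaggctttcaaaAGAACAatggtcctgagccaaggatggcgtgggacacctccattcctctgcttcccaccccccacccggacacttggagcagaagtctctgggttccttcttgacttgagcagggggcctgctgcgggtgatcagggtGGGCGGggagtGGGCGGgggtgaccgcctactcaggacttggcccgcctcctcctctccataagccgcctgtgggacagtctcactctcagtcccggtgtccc
Slco2a1: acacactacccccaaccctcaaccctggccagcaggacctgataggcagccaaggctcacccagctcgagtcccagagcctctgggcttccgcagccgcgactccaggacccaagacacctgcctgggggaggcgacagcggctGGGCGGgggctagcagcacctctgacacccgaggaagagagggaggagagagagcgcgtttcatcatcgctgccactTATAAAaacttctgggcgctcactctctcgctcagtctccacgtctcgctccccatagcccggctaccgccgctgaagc
Hpgd: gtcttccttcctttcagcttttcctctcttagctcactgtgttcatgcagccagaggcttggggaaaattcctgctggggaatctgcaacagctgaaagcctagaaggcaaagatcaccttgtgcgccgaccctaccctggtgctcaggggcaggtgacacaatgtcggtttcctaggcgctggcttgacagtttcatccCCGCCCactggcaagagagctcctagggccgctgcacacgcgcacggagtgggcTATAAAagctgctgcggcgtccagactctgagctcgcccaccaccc
These windows are chr1:150099781-150100080 on the plus strand, chr2:30903248-30903547 on the minus strand, chr9:103008237-103008536 on the plus strand and chr8:56294302-56294601 on the plus strand. In Ptgs2 the cyclic AMP site, read on the minus strand, and the E box overlap. They lie after the annotated transcript start of the window, from 14 and 17 bases past it. The starts in use in these uteri were not measured. A GC box is in all 4 windows, and 2 are in that of Ptges. Slco2a1 holds a TATA box from 29 bases before the start and Hpgd one from 5 bases after it, and Ptges holds the receptor hexamer.

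The window of Pla2g4a at chr1:149961241-149961540 on the minus strand has none of these matches, and its other window holds a TATA box and the receptor hexamer. Ptges3, the most GC-rich at 73.7 percent, has 4 GC boxes, 1 of them after the start, and 1 cyclic AMP site, also after it, and Ptgs1 has 1 receptor hexamer. Windows of Ptgds and Hpgds hold no match. The full cyclic AMP palindrome TGACGTCA (in 1.79 percent of promoters) and the full palindromes of the progesterone and glucocorticoid receptors (0.00913 percent) and of the estrogen receptor (0.07 percent) were found in no member's window. A match describes letters only, and binding was not measured.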

How the data were processed

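RNA of 20 uterine horns had been sequenced from stranded poly(A) libraries. The authors trimmed reads with Trimmomatic, mapped them to mm10 with HISAT2, assembled transcripts with StringTie and deposited TPM per gene. Columns sum to between 999989 and 999999 TPM, so depth is unknown and no counting intervals are given. The count-based test that the authors ran in edgeR could not be repeated on TPM.

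Log2(TPM + 0.1) values of the 18706 genes above 0 in all 20 libraries were fitted with limma 3.58.1 (R 4.3.3, variance trend, 4 groups in 1 fit). Adjusted p-values are Benjamini-Hochberg within each comparison over all tested genes, with a threshold of 0.05, and intervals are 95 percent. The fitting code was tested on simulated data. Alternatives changed the pseudocount, filter, scaling, spread model, call rule and groups fitted, added a replicate block, or left out each library in turn.

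Named pathway genes are those called in IF against control or PBMC-hCG against IF, at most 4 per list, by size of difference, with a mean of at least 1 TPM. For each member the 3 closest genes by Pearson r are named, and of each marker list its most abundant gene. Members and lists were chosen with earlier results of these data known. Sequences and positions are from RefSeq. Figures were drawn with matplotlib 3.10.9.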

Additional observations from a re-analysis of the deposited data

Results flagged for a closer look

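5 of 40 groups of 5 mice held 1 value far from the other 4, measured as its gap to the nearest value over the whole range of the group. For independent groups of normally distributed values chance gives this in about 1 in 20 groups. TPM values need not be normal and the 40 groups come from the same 20 libraries, so that rate is only a rough guide. Of the 5 values found, 4 were in PBMC-hCG replicate 1. Its Ptgs2 was 1.9 TPM, where the next was 0.814. Its Ptges was 23.1 TPM, where the next was 12. Its Ptges3 was 156 TPM, where the next was 124. Its Slco2a1 was 29 TPM, where the next was 18.1. The other was Hpgds in control replicate 2, at 62.3 TPM where the next was 14.1. These 4 genes of PBMC-hCG replicate 1 come from 1 library and are not separate observations.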

How the results depend on the processing

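Under the study's own criteria (a fold change of at least 2 and an unadjusted p under 0.05, met by between 0.438 and 4.74 percent of all tested genes in a comparison) members called were 0 in IF vs control, 1 in PBMC-hCG vs IF, 1 in PBMC-hCG vs PBMC and 0 in PBMC-hCG vs control, with 0 in PBMC vs IF. All counts that follow are at an adjusted p under 0.05, where the members called were 3, 0, 5, 0 and 2 in the order of the report. In PBMC-hCG vs IF they became 0 with no filter on low values and 1 with only the 2 groups compared in the fit. With a pseudocount of 1, Ptgs2 no longer passed there (adjusted p 0.0533). In PBMC-hCG vs control they became 1 with no filter, 1 under quantile normalization and 1 under median ratio scaling. The causes were not tested. Leaving out 1 library gave 1 to 3 members called in IF vs control, 0 to 6 in PBMC-hCG vs IF and 0 to 2 in PBMC-hCG vs control. PBMC vs IF and PBMC-hCG vs PBMC stayed at 0 when any 1 library was left out.

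With the replicate number as a block the counts were 3, 0, 6, 0 and 2 in the order of the report, and the block changed no call of a member except that Ptges3 passed in PBMC-hCG vs IF (-0.42, adjusted p 0.0463, from 0.0223 to 0.192 over the alternatives). Samples with the same number correlated between -0.25 and 0.46 in their deviations from the group means, and not every sample correlated best with its own number, so the numbers were not taken to pair the mice.

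Members that did not pass changed sign in these cases. Under median ratio scaling they were Ptgis in PBMC-hCG vs IF (-0.029), Ptgs2 in PBMC vs IF (-0.011) and Slco2a1 in PBMC-hCG vs control (-0.067). Under quantile normalization they were Ptgis in PBMC-hCG vs PBMC (0.003), Ptgs1 in PBMC vs IF (-0.0022), Ptgs2 in PBMC vs IF (-0.075) and Slco2a1 in PBMC-hCG vs control (-0.061). With a pseudocount of 0.01 it was Ptgs2 in PBMC vs IF (-0.0039). Leaving out 1 library spread the IF vs control difference from -0.38 to 0.22 for Hpgds, from -0.16 to 0.049 for Ptges3 and from -0.34 to 0.10 for Ptgs1. In PBMC vs IF it ran from -0.032 to 0.077 for Ptgis, from -0.028 to 0.094 for Ptgs1 and from -0.47 to 0.25 for Ptgs2. In PBMC-hCG vs IF it ran from -0.056 to 0.057 for Ptgis. In PBMC-hCG vs PBMC it ran from -0.054 to 0.031 for Ptgis and from -0.0021 to 0.23 for Ptgs1. In PBMC-hCG vs control it ran from -0.50 to 0.11 for Hpgds, from -0.15 to 0.026 for Pla2g4a, from -0.23 to 0.066 for Ptges, from -0.25 to 0.20 for Ptgs1 and from -0.16 to 0.079 for Slco2a1. No scaling moved the median of all genes by more than -0.065. The causes were not tested.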
